A study of Mus musculus with 4 samples.

Results

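The expression of 9 genes of the p53 pathway and of cell-cycle arrest, Trp53, Cdkn1a, Cdkn2a, Mdm2, Ccng1, Phlda3, Bax, Trp53inp1 and Zmat3, was measured in single cells of mouse lung tumors. The genes were chosen by symbol, and all 9 were found among the 31055 features. Droplet-based 3′ single-cell RNA sequencing had been run on viable cells, sorted as DAPI-negative, from the dissociated tumors of 4 female mice. All mice carried a tdTomato reporter that Cre recombinase switches on (Rosa26LSL-tdTomato) and the allele Lkb1XTR/XTR, whose gene trap Cre inverts to silence Lkb1 (Stk11). The 2 Restored mice also carried FLPo-ERT2, a recombinase that tamoxifen activates and that removes the trap, whereas the 2 Non-Restored mice lacked it. Tumors were initiated by Cre from a lentivirus given into the trachea, which is not restricted to epithelial cells, and were collected after 16 weeks, the last 2 of them under tamoxifen in doses of 4 mg in every mouse. No allele of Trp53 or Cdkn2a is named in the genotypes.

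Cells from every mouse were deposited together, 20351 in all, of which 19488 passed the cell filter, with a median of 1949.5 unique molecular identifiers (UMIs) per cell. No file used here ties a cell to a mouse, so they were treated as 1 sample, Restored and Non-Restored mice were not compared, and no p-value is given. Levels are given as CPM (UMIs of the gene relative to all UMIs of the cell group), and each 95% interval covers counting error only, not the spread between mice. Unequal shares of the 4 mice in a cell group cannot be told apart from a difference between cell groups. Fewer cells with a transcript and fewer transcripts per cell give the same CPM.

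The p53 protein, encoded by Trp53, is a transcription factor held low by Mdm2, a ubiquitin ligase whose gene p53 itself activates. Under DNA damage or oncogenic stress p53 accumulates and activates genes that stop the cell cycle, such as Cdkn1a, which encodes the kinase inhibitor p21, and genes that promote cell death, such as Bax. Cdkn2a encodes p16Ink4a, an inhibitor of the cyclin D-dependent kinases, and, from another first exon, p19Arf, which inhibits Mdm2. Ccng1 (cyclin G1), Phlda3 (a competitor of Akt for membrane lipids), Trp53inp1 (a stress-induced nuclear protein) and Zmat3 (an RNA-binding zinc finger protein) are well-known p53 targets. In lung tumors Cdkn2a and the p53 pathway are known barriers to progression.

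In the GENCODE vM21 annotation of GRCm38 (mm10), Trp53 lies at chr11:69580359-69591873 on the plus strand, Cdkn1a at chr17:29090976-29100727 on the plus strand, Cdkn2a at chr4:89274471-89294653 on the minus strand and Mdm2 at chr10:117688875-117710758 on the minus strand. Ccng1 lies at chr11:40748552-40755311 on the minus strand, Phlda3 at chr1:135766119-135769136 on the plus strand, Bax at chr7:45461697-45466898 on the minus strand, Trp53inp1 at chr4:11156431-11174379 on the plus strand and Zmat3 at chr3:32334792-32366014 on the minus strand. Bax overlaps Gm45808 on its own strand, so its count is uncertain where they share sequence, and Cdkn1a overlaps AC167363.2 on the other strand. The other 7 genes overlap no annotated gene.

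The coding sequences of the 2 annotated Cdkn2a transcripts begin differently, and their first 40 bases are shown because these starts are what tells p16Ink4a from p19Arf. The transcript with the first exon at chr4:89281986-89282192 encodes p16Ink4a, and the one with the first exon upstream of it, at chr4:89294334-89294653, encodes p19Arf.
Cdkn2a-201: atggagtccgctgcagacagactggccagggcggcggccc
Cdkn2a-202: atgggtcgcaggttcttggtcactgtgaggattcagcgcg
Both go on into the exon at chr4:89276645-89276985 and share 575 bases in all, of 852 and 895 bases. Counts from the 3′ end fall in the shared part, so every Cdkn2a level below is the sum of both transcripts.

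RefSeq promoter sequences (GRCm38.p6, from 250 bases before to 50 after a start) were at hand for 7 of the 9 genes, with 9 starts in all. They were searched for the p53 response element, written as 2 of its half-sites of 10 bases with at most 13 bases between them and at most 2 mismatches in all. The half-site reads the same on both strands, so 1 pass covers both. Such a pair was found before starts of 3 genes, Cdkn1a, Ccng1 and Bax, and in 10.1% of all 32851 promoters. At least 1 exact half-site was found for 5 genes, those 3 with Mdm2 and Trp53, and in 8.36% of all promoters. The 3 stretches with a pair are shown with the half-sites in capitals, each on the strand of its gene. They differ from each other in sequence, and each is a match to the response element as written above.
Cdkn1a, chr17:29090908-29090967, plus strand: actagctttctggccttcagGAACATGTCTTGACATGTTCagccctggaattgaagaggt
Ccng1, chr11:40755442-40755501, minus strand: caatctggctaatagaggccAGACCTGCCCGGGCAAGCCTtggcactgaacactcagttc
Bax, chr7:45467070-45467130, minus strand: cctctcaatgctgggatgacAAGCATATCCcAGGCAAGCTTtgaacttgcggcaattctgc
The pair lay 51 to 32 bases before the upstream Cdkn1a start, 195 to 176 bases before the Ccng1 start and 212 to 192 bases before the Bax start, with 1 mismatch each. These are matches of letters and do not show binding.

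Clustering without the 9 genes and the lists below gave 11 cell classes, each named from its markers. The B or plasma-like class also had ciliated or club markers at 10240 CPM, beside 9324 CPM of B or plasma markers. The club cell gene Scgb1a1 was among its top genes, and the source of these UMIs was not tested. Epithelial-like cells, where the tumor cells are to be found, numbered 947 (4.86% of cells, exact binomial 95% interval 4.56% to 5.17%) and had a median of 3680 UMIs. TdTomato stood at 5651 CPM in them and at 710 CPM in all other cells, and among the other classes alveolar macrophage-like cells reached 2657 CPM. TdTomato UMIs were thus found in both the epithelium and alveolar macrophage-like cells. GFP, carried by the gene trap, stood at 32.0 CPM in the epithelium and 1.48 CPM elsewhere, and Stk11 at 22.1 and 20.5 CPM, in a mixture of mice with and without the trap removed.

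To ask where the 9 genes were expressed in the tumors, their levels were compared across the 11 classes. Cdkn1a was broad. It stood at 578 CPM in endothelial-like, 565 in interstitial macrophage-like, 554 in alveolar macrophage-like and 531 in neutrophil-like cells. Within these 4, no class differed from the next in the order beyond counting error, and only neighbours were compared. Epithelial-like cells followed at 456 CPM, below the neutrophil-like cells by a log2 ratio of 0.22 in size (0.11 to 0.33). In shares of cells the epithelium was not below the neutrophil-like cells. Thinned to 1000 UMIs per cell, 30.7% of epithelial-like cells (27.7% to 33.8%) had a Cdkn1a UMI. Of the neutrophil-like cells 24.4% did (21.2% to 27.7%), with 706 of 1802 deep enough. At 500 UMIs, with all 1802 kept, the epithelial-like and neutrophil-like shares were 18.9% (16.5% to 21.5%) and 18.0% (16.3% to 19.9%). At 2000 UMIs they were 45.9% (42.3% to 49.5%) and 41.3% (34.2% to 48.6%). The intervals overlap at both of these depths. The T or NK-like and B or plasma-like classes were far lower, at 89.5 and 19.4 CPM. Cells of another kind within the T or NK-like class are described below. High Cdkn1a was thus no feature of the epithelium alone. Immediate-early and heat-shock genes, which tissue dissociation can induce, summed to 3079 CPM in T or NK-like and 2790 CPM in B or plasma-like cells. Their sums were 10707 CPM in endothelial-like, 8847 in neutrophil-like, 7380 in alveolar macrophage-like and 6489 in interstitial macrophage-like cells. Mast cell or basophil-like and stromal-like cells, at 329 and 237 CPM of Cdkn1a, had 13838 and 12626 CPM. The part of these genes in the order was not tested.

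**Figure D1:**
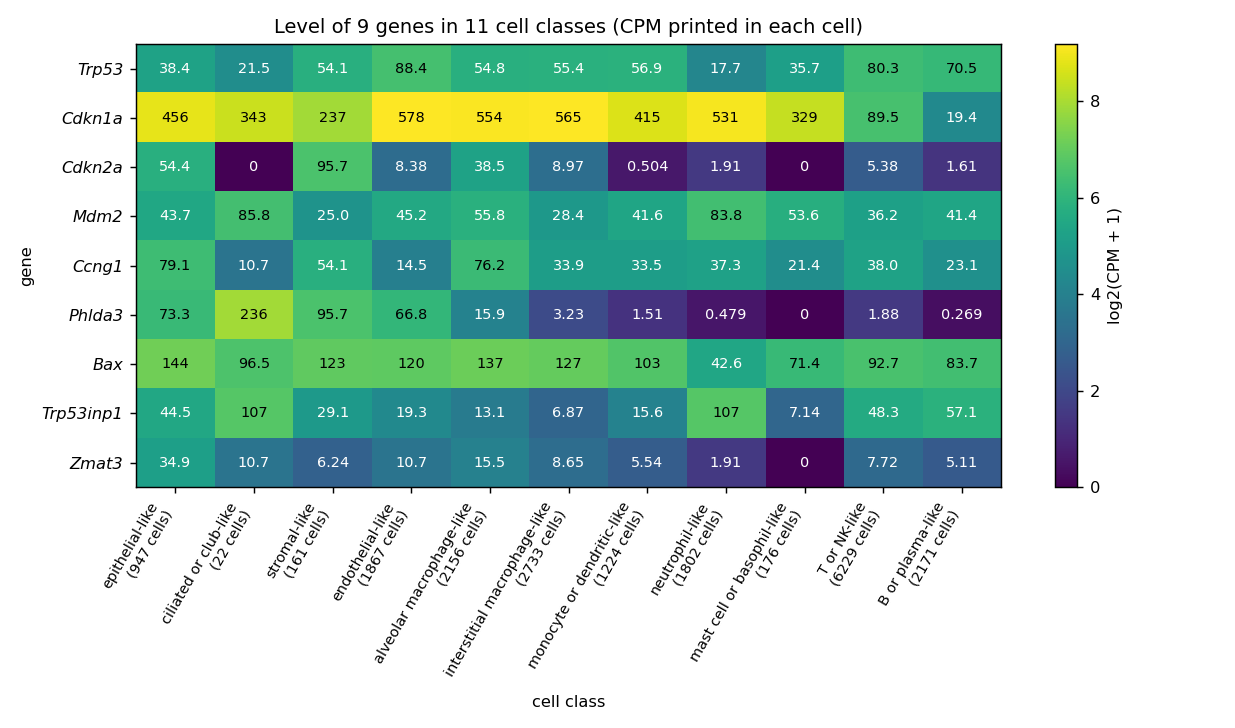
Level of each gene (rows) in each of the 11 cell classes (columns, with the number of cells), with the CPM printed in each field and the colour giving log2(CPM + 1). Cdkn1a is high in most classes and low in B or plasma-like cells at 19.4 CPM, whereas Cdkn2a is low outside stromal-like, epithelial-like and alveolar macrophage-like cells.

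Cdkn2a was restricted to a few classes. It reached 95.7 CPM in stromal-like cells (46 UMIs from 20 of 161 cells), 54.4 CPM in epithelial-like and 38.5 CPM in alveolar macrophage-like cells. In CPM each of these steps was larger than counting error. The next class, interstitial macrophage-like cells, had 8.97 CPM, and monocyte or dendritic-like cells 0.504 CPM. Thinned to 1000 UMIs per cell, 7.20% of stromal-like (3.35% to 13.2%) and 5.47% of epithelial-like cells (4.07% to 7.17%) had a Cdkn2a UMI. These intervals overlap, so the share of cells did not set these classes apart. No Cdkn2a UMI was seen in ciliated or club-like or in mast cell or basophil-like cells, which were few (22 and 176 cells), so that 3 UMIs would equal 32.2 and 10.7 CPM there. Of the 10 other classes, 9 lay below the epithelium with an interval that left out 0 and 1, the stromal-like class, lay above it.

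Phlda3 divided the tissue by lineage. It stood at 236 CPM in ciliated or club-like cells (22 UMIs), 95.7 CPM in stromal-like, 73.3 CPM in epithelial-like and 66.8 CPM in endothelial-like cells. The last 3 did not differ, neighbour from neighbour, beyond counting error. In the hematopoietic classes it was 15.9 CPM in alveolar macrophage-like cells and at most 3.23 CPM in the others. Among 2171 B or plasma-like cells a single UMI was seen, and none among 176 mast cell or basophil-like cells.

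Zmat3 was highest in the epithelium, at 34.9 CPM, above alveolar macrophage-like cells at 15.5 CPM (log2 ratio 1.17, 0.83 to 1.5). Epithelial-like cells exceeded 9 of the 10 other classes for Zmat3. Ccng1 was shared between epithelial-like and alveolar macrophage-like cells, at 79.1 and 76.2 CPM, which did not differ (log2 ratio 0.05, -0.14 to 0.25), and ranged from 10.7 to 54.1 CPM elsewhere. Bax was expressed in every class, from 42.6 CPM in neutrophil-like to 144 CPM in epithelial-like cells, and the epithelium was not above alveolar macrophage-like cells (137 CPM) beyond counting error.

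Trp53 and its regulators followed other patterns. Trp53 was highest in endothelial-like cells (88.4 CPM) and T or NK-like cells (80.3 CPM), stood at 38.4 CPM in the epithelium and was lowest in neutrophil-like cells (17.7 CPM). Mdm2 and Trp53inp1 were instead high in neutrophil-like cells, at 83.8 and 107 CPM, beside 43.7 and 44.5 CPM in the epithelium. Neutrophil-like cells were the shallowest class, with a median of 887.5 UMIs. The order of the classes by Trp53 mRNA was thus not that by Mdm2 or Trp53inp1, and the target genes shared no common order either.

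Across the 10 other classes and the 3 epithelial states described below, the gene most like Cdkn1a by Pearson correlation of log2(CPM + 10) was D17Wsu92e (r = 0.88), followed by Nfe2l2 (0.85), Myo9a (0.85), Cpne3 (0.83) and Csnk1e (0.82), among 9972 genes. For Cdkn2a these were Stau2 (0.95), Mical2 (0.93), Neo1 (0.93), S1pr2 (0.92) and Tnfrsf12a (0.91). The 13 groups share 1 experiment and differ in depth, so these values describe likeness only.

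Summed over all classes outside the epithelium, 3 of the 9 genes were at least 2-fold higher in epithelial-like cells and none was at least 2-fold lower, where 16.4% of the 14690 genes with at least 20 UMIs were that much higher and 30.6% that much lower. Phlda3 was 73.3 against 11.7 CPM (log2 ratio 2.64, 2.43 to 2.85), Cdkn2a 54.4 against 14.1 CPM (1.94, 1.71 to 2.17) and Zmat3 34.9 against 9.32 CPM (1.91, 1.61 to 2.19). In this comparison no other gene of the set reached 2-fold. Ccng1 (79.1 against 42.4 CPM, log2 ratio 0.90), Trp53inp1 (44.5 against 27.7, 0.68), Bax (144 against 112, 0.36) and Cdkn1a (456 against 397, 0.20) were higher by less. For Mdm2 no difference was detectable (43.7 against 42.4 CPM, log2 ratio 0.04, -0.19 to 0.27). Trp53 was lower, at 38.4 against 63.0 CPM (log2 ratio -0.72, -0.97 to -0.47). The median over the 9 genes was 0.68, beside -0.26 over all genes tested. Immediate-early and heat-shock genes, which tissue dissociation can induce, summed to 6337 CPM in the epithelium and 6108 CPM elsewhere.

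What counts as the comparison moved single values. Without the TdTomato-positive cells outside the epithelium, Cdkn2a had a log2 ratio of 2.86 (2.59 to 3.12) and Ccng1 of 1.29, so that 4 genes were past 2-fold. With each class given equal weight, Phlda3 was at 0.80 and Trp53inp1 at 0.12, and Ccng1, at 1.21, passed 2-fold in the place of Phlda3. These values have no interval. The 22 ciliated or club-like cells, at 236 CPM of Phlda3, then weigh as much as any other class, and their part was not tested.

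**Figure D2:**
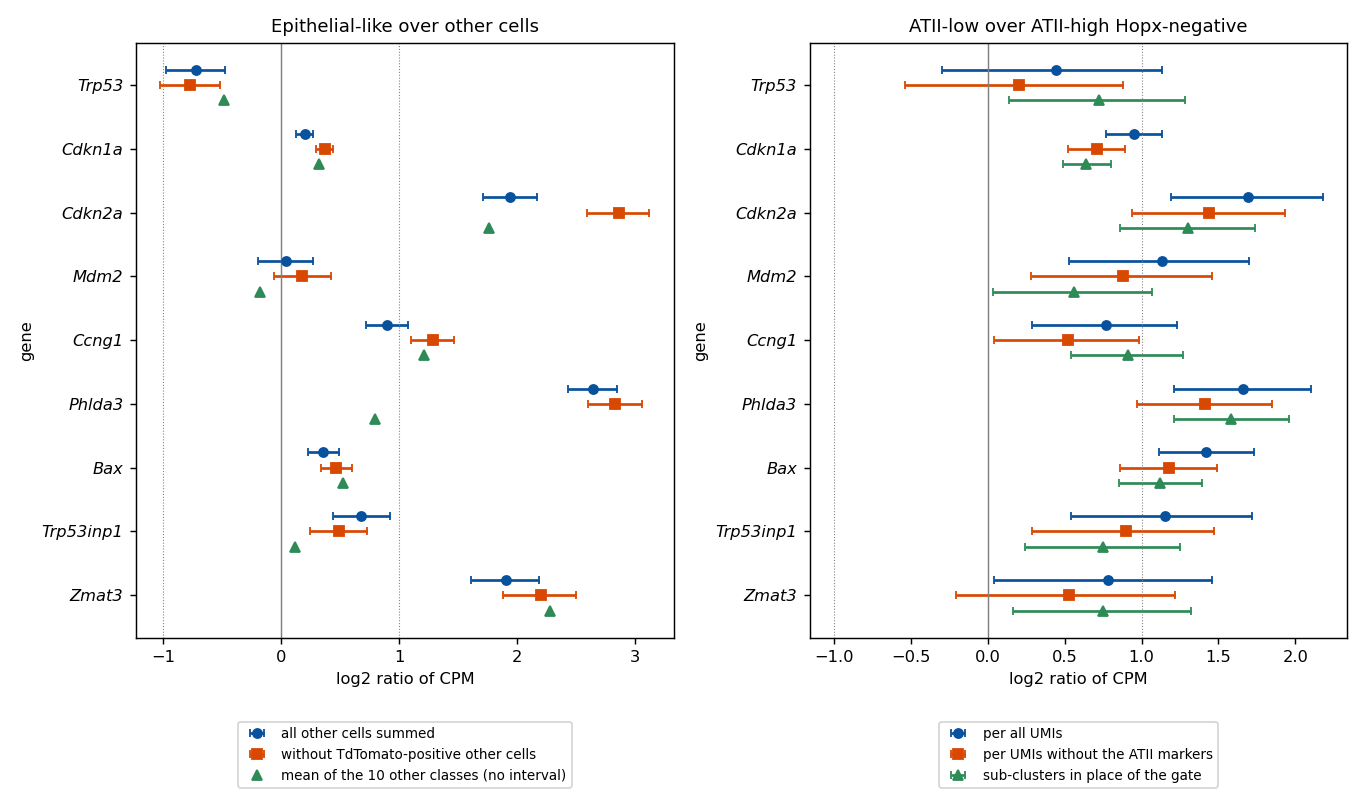
Log2 ratio of CPM for each gene (rows) between epithelial-like and other cells (left) and between ATII-low and ATII-high Hopx-negative cells (right), with 95% counting intervals and 2 other ways of making each comparison; dotted lines mark 2-fold. Cdkn2a and Zmat3 are over 2-fold higher in the epithelium in all 3 ways and Phlda3 in 2 of them, and in the right panel Cdkn2a, Phlda3 and Bax stay past 2-fold in all 3.

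The tumor epithelium holds cells that keep the alveolar type II (ATII) program of surfactant production and cells that resemble alveolar type I (ATI) cells, the flat cells of gas exchange. A summed level of 11 ATII markers under 10500 CPM, the trough between its 2 modes, defined 160 ATII-low cells. The other cells were split by a UMI of Hopx, an ATI gene, into 193 Hopx-positive and 594 Hopx-negative cells. All 10 ATI markers and all 8 markers of the transitional state, such as Krt8 and Krt19, were higher in ATII-low than in ATII-high Hopx-negative cells, and their sums were 8666 against 1770 CPM and 8547 against 1940 CPM. TdTomato lay between 5568 and 5879 CPM in the 3 states, so reporter transcripts were found in all of them. Hopx is itself 1 of the 10 ATI markers, and the gate set it to 0 in the Hopx-negative cells, so its direction was fixed. The gates used none of the 9 genes.

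All 9 genes had a higher level in ATII-low than in ATII-high Hopx-negative cells, and 5 of them, Cdkn2a, Phlda3, Bax, Trp53inp1 and Mdm2, were at least 2-fold higher, where 13.4% of 8611 genes tested were that much higher and 11.2% that much lower. The interval lay above 0 for 8 of the 9 genes and for 20% of all genes. The median log2 ratio was 1.13, beside 0.20 over all genes.

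Among the arrest genes, Cdkn2a stood at 39.0 CPM in Hopx-negative, 64.5 CPM in Hopx-positive and 126 CPM in ATII-low cells (99, 50 and 55 UMIs), and both steps were larger than counting error. From the first to the last state its log2 ratio was 1.69 (1.19 to 2.18). Cdkn1a followed the same order at 389, 511 and 753 CPM (988, 396 and 329 UMIs), with a log2 ratio of 0.95 (0.77 to 1.13) and again a difference at each step. Cdkn1a and the summed Cdkn2a transcripts were thus highest in the cells low in the ATII program. Whether p16Ink4a or p19Arf made up the Cdkn2a level cannot be told.

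Bax and Phlda3 showed the same order at each step. Bax, which permeabilizes the mitochondrial outer membrane, stood at 107, 182 and 288 CPM in the 3 states, a log2 ratio of 1.42 (1.11 to 1.73) from the first to the last. Phlda3 stood at 49.2, 106 and 156 CPM, a log2 ratio of 1.66 (1.21 to 2.10). The step from Hopx-positive to ATII-low cells was smaller for Phlda3, at 0.56 (0.07 to 1.04), than the step from Hopx-negative to Hopx-positive cells, at 1.11 (0.69 to 1.52), although these intervals overlap.

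Mdm2 was at 36.6, 46.5 and 80.1 CPM, and its interval left out 0 only at the second of the 2 steps (log2 ratio 0.79, 0.07 to 1.5). Trp53inp1 was at 36.2, 51.6 and 80.1 CPM and Zmat3 at 30.7, 38.7 and 52.6 CPM, and neither differed at a single step beyond counting error. From the first to the last state their log2 ratios were 1.15 (0.54 to 1.72) and 0.78 (0.04 to 1.46). Ccng1 was at 68.5, 92.9 and 117 CPM, with a log2 ratio of 0.77 (0.29 to 1.23). Trp53 itself was at 37.0, 36.1 and 50.3 CPM, and no difference was detectable with 22 UMIs in ATII-low cells (log2 ratio 0.44, -0.30 to 1.13).

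**Figure D3:**
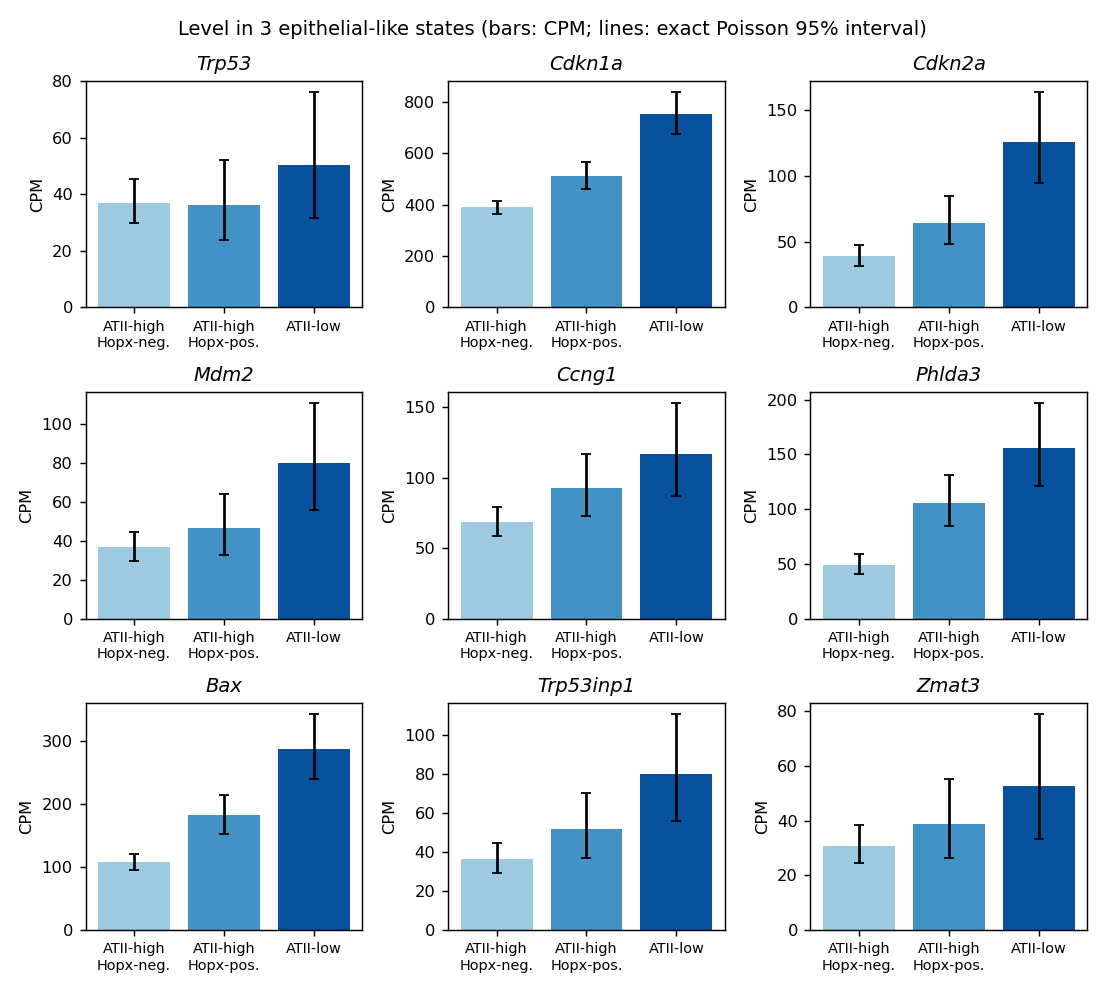
Level in CPM (bars from 0) of each gene in the 594 ATII-high Hopx-negative, 193 ATII-high Hopx-positive and 160 ATII-low cells, with exact Poisson 95% intervals. ATII-low cells have the highest bar in every panel, and Cdkn1a goes from 389 to 511 to 753 CPM, whereas the intervals of Trp53 overlap in all 3 states.

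In the comparison of Hopx-positive with Hopx-negative ATII-high cells, 1 of the 9 genes, Phlda3, was at least 2-fold higher, where 4.35% of all genes tested were. Besides Phlda3, the intervals of Bax (log2 ratio 0.76), Cdkn2a (0.73), Ccng1 (0.44) and Cdkn1a (0.39) lay above 0. The interval lay above 0 for 10.1% of all genes tested. This comparison and the one before share the Hopx-negative cells, so they are not independent. ATII markers were lower in the Hopx-positive cells as well, at 111704 against 160756 CPM.

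ATII markers took 16.1% of the UMIs of Hopx-negative cells and 0.365% of those of ATII-low cells, which lifts the CPM of every other gene in ATII-low cells. With these UMIs left out of the totals, the median over all genes moved from 0.20 to -0.05 and that of the 9 genes from 1.13 to 0.88, and 3 genes (Cdkn2a, Phlda3 and Bax) were at least 2-fold higher, where 8.21% of 8600 genes were. The same 3 genes passed 2-fold when sub-clusters of the epithelium replaced the gate. Immediate-early and heat-shock genes summed to 6512 CPM in Hopx-negative and 6673 CPM in ATII-low cells. Interstitial macrophage markers summed to 295 and 359 CPM, and with the 14 epithelial-like cells that had at least 3 of 7 immune markers left out, 5 genes were past 2-fold. Markers of ciliated or club cells, the class highest in Phlda3, summed to 68.5 and 4828 CPM, but 2062 of their 2110 UMIs in ATII-low cells came from 1 cell, and 13 of the 160 cells had any. Without all cells that had such a UMI, 6 genes were past 2-fold, Cdkn1a (log2 ratio 1.01) besides the 5, with Phlda3 at 1.70 and Cdkn2a at 1.73. Markers of stromal cells, the class highest in Cdkn2a, summed to 295 and 1085 CPM. Sparc made up 467 of these 474 UMIs in ATII-low cells, spread over 122 cells, while 6 of the 10 markers, among them Col1a1, Col1a2 and Dcn, were at 0, and the part of Sparc-expressing cells in the result was not tested. ATII-low cells were shallower, with a median of 2314.5 against 4184 UMIs, and mice cannot be told apart.

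To see whether few or many cells carried these transcripts, each cell was thinned to 1000 UMIs. A Cdkn1a UMI was then seen in 26.4% of Hopx-negative (22.8% to 30.3%), 33.3% of Hopx-positive and 43.2% of ATII-low cells (35.1% to 51.6%). For Phlda3 the shares were 4.50%, 9.90% and 17.6%, and for Cdkn2a 3.42%, 6.77% and 11.5%. For these 3 genes the order of the states at this depth was that of the CPM. It was not so throughout, since thinning to 500 UMIs gave 17.3%, 21.8% and 21.2% for Cdkn1a, and Zmat3 at 1000 UMIs was at 3.24%, 5.73% and 4.73%. Of 594, 193 and 160 cells, 556, 192 and 148 were deep enough.

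Over the whole epithelium, 30.7% of thinned cells had a Cdkn1a UMI and 5.47% a Cdkn2a UMI. In B or plasma-like cells, the class lowest in Cdkn1a, these shares were 1.72% and 0.0556%, and the level of free RNA itself was not measured. Unthinned, with median depths of 3680 and 1366 UMIs, they were 57.6% and 16.9% in the epithelium and 2.53% and 0.184% in B or plasma-like cells. Cdkn1a was unevenly spread among epithelial-like cells: the 90 cells highest in Cdkn1a, of 896, held 57.5% of its UMIs after thinning, up to 8 in a cell. In alveolar macrophage-like cells, where 38.8% had a UMI, the highest 207 of 2067 cells held 45.6%, and the ratio of variance to mean was 1.36 there against 2.03 in the epithelium. In neutrophil-like cells the highest 71 of 706 held 67.6%, with a ratio of 2.40, so uneven Cdkn1a was not particular to the epithelium.

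Other genes of the pathway were taken from lists. Of 30 further p53 targets, 21 had enough UMIs in the ATII-low comparison, 9 were at least 2-fold higher and 2 at least 2-fold lower, beside 13.4% and 11.2% of all genes, with a median log2 ratio of 0.62 (0.20 over all genes). Sfn, which encodes the checkpoint protein 14-3-3 sigma, stood at 332 CPM in ATII-low and 31.5 CPM in ATII-high Hopx-negative cells (log2 ratio 3.40, 2.99 to 3.81). Xpc, a DNA damage sensor of nucleotide excision repair, stood at 54.9 and 13 CPM (2.08), and the kinase gene Plk2 at 144 and 44.9 CPM (1.68). Sesn2, a stress-induced inhibitor of mTORC1 signaling, went the other way, at 16.0 and 36.6 CPM (-1.19, -2.55 to -0.09), as did Dcxr, a carbonyl reductase, at 208 and 288 CPM (-0.47). Plk3 had 2 UMIs in ATII-low cells (-1.16, -4.28 to 0.84). The targets thus did not all go in 1 direction.

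The list of 19 arrest genes also holds genes that promote the cycle, namely Ccnd1, Ccnd2, Ccnd3, Cdk4, Cdk6 and E2f1, so its counts mix both kinds. Of the list, 15 genes had enough UMIs, 2 were at least 2-fold higher in ATII-low cells and 1 at least 2-fold lower. These shares were no larger than the 13.4% and 11.2% of all genes. Cdkn2b, the neighbour of Cdkn2a that encodes the related inhibitor p15Ink4b, stood at 146 against 31.1 CPM (log2 ratio 2.24, 1.74 to 2.73). Ccnd2, which encodes cyclin D2 and promotes rather than arrests the cycle, stood at 238 against 38.2 CPM (2.64, 2.23 to 3.05). Gadd45g, a growth arrest gene of the stress response, was lower at 22.9 against 92.5 CPM (-2.01, -3.09 to -1.11). Ccnd3, another cyclin gene, was at 82.4 against 50.4 CPM (0.71, 0.13 to 1.25), while Gadd45a (-0.76) and the antiproliferative gene Tob1 (-0.28) had intervals that included 0. These genes are described singly, and the list as a whole did not stand out.

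Of 12 regulators of p53, 8 had enough UMIs, 1 was at least 2-fold higher and 1 at least 2-fold lower, near the 13.4% and 11.2% of all genes, with a median of -0.17. Mdm4, the partner of Mdm2, stood at 64.1 against 37.8 CPM (log2 ratio 0.76, 0.10 to 1.38) and the kinase gene Atr at 18.3 against 6.30 CPM from 8 and 16 UMIs (1.54, 0.11 to 2.85). Atm, Ppm1d and Trp53bp1, with 2 to 4 UMIs each in ATII-low cells, did not differ beyond counting error. None of the 10 immediate-early and heat-shock genes was 2-fold higher or lower. Hspa1b (log2 ratio 0.93), Atf3 (0.82) and Hspa1a (0.62) were higher by less, and Egr1 (-0.76) and Fosb (-0.53) lower by less, while the interval of Ier2 (-0.06) included 0.

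Between the epithelium and all other cells, the lists went both ways. Of 29 p53 targets with enough UMIs, 6 were at least 2-fold higher and 6 at least 2-fold lower, beside 16.4% and 30.6% of all genes, with a median of -0.16 (-0.26 over all genes). Sfn (69.0 against 1.09 CPM), Dcxr (281 against 27.8 CPM) and the receptor tyrosine kinase gene Epha2 (41.6 against 4.69 CPM) were higher. Pmaip1, which encodes the pro-apoptotic protein Noxa, was lower at 3.20 against 56.9 CPM, as were Plk3 (9.86 against 84.6 CPM) and the antiproliferative gene Btg2 (358 against 893 CPM). Among the 19 genes of the arrest list, those that promote the cycle included, 3 were at least 2-fold higher and 9 at least 2-fold lower, against the same 16.4% and 30.6%. The 3 were the inhibitors Cdkn1c (59.4 against 4.16 CPM) and Cdkn2b (49.6 against 5.62 CPM) and the cyclin gene Ccnd1 (250 against 58.1 CPM), while Cdk6, a kinase gene of the cycle itself, was at 1.60 against 58.2 CPM, Gadd45b at 107 against 382 CPM and Btg1 at 280 against 974 CPM. Of 10 regulators with enough UMIs, 1 was at least 2-fold lower, the checkpoint kinase gene Chek2 (1.60 against 3.96 CPM). Atr (log2 ratio -0.62) and Cop1 (-0.42) were lower by less, and Trp53bp1 (0.13) and Rchy1 (0.05) had intervals that included 0. Of the 10 immediate-early and heat-shock genes, Hspa1b (log2 ratio 1.96) and Hspa1a (1.44) were at least 2-fold higher and Junb (-1.49) lower. Jun (0.90) was higher and Ier2 (-0.37) lower by less, and the interval of Dnajb1 (-0.15) included 0.

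Since arrest genes oppose the cell cycle, cells with UMIs of at least 2 of 10 cell-cycle genes were compared with cells of their class that had none. In alveolar macrophage-like cells, 126 cycling cells were set against 1747 others of similar depth, with medians of 5653 and 5333 UMIs. Cdkn2a was lower in the cycling cells, at 12.6 against 41.6 CPM (9 and 377 UMIs, log2 ratio -1.72, -2.86 to -0.78), and Cdkn1a was at 431 against 560 CPM (-0.38, -0.55 to -0.21). Cdkn2a was the 1 gene at least 2-fold lower, where 8.40% of 10127 genes were. Ccng1 went the other way, at 135 against 69.0 CPM (0.96, 0.64 to 1.28), as did Phlda3, at 28.1 against 15 CPM (0.90, 0.15 to 1.59). None was at least 2-fold higher, where 6.01% of all genes were. The 5 other genes had intervals that included 0.

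In these cycling macrophages, the summed alveolar macrophage markers were also lower, at 19321 against 31116 CPM, and so were the immediate-early and heat-shock genes, at 5122 against 7618 CPM. Their part in the Cdkn2a and Cdkn1a values was not tested.

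In the epithelium only 6 cells met the same cycling criterion, beside 838 with none. Cdkn1a was at 165 against 475 CPM in them (6 and 1517 UMIs, log2 ratio -1.52, -2.97 to -0.40), and the other 8 genes had at most 3 UMIs each in the cycling cells. With the upper limits on genes and on mitochondrial share both lifted, the Cdkn1a ratio was -0.10 (-0.51 to 0.28), so this value depends on those limits.

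Among T or NK-like cells, 255 cycling cells had Cdkn1a at 299 CPM and 5704 others at 58.6 CPM (log2 ratio 2.35, 2.16 to 2.54), and 3 genes (Cdkn1a, Cdkn2a and Phlda3) were at least 2-fold higher, where 17.3% of all genes were. This group was mixed. Interstitial macrophage markers summed to 1882 CPM in the cycling cells and 42.9 CPM in the others, and 102 of the cycling cells had no UMI of 5 T-cell receptor complex genes, with Cdkn1a at 518 CPM. These 102 cells, with the macrophage marker C1qa at 1367 CPM, held 340 of the 998 Cdkn1a UMIs of the whole class. The class level of 89.5 CPM was thus not that of lymphocytes alone. At a clustering resolution of 0.3, 214 of the 255 cells formed part of an unnamed cluster led by the histone gene Hist1h2ap, and Cdkn1a then stood at a log2 ratio of -0.70 (-2.16 to 0.43). In cells with at least 2 of the 5 receptor genes, Cdkn1a was at 109 against 54.6 CPM (0.99, 0.63 to 1.34), with interstitial macrophage markers at 190 against 45.7 CPM, and 1 gene, Phlda3 not counted for its 12 UMIs, was at least 2-fold higher, where 13.1% of all genes were. That gene was Cdkn2a, at 14.6 against 4.18 CPM from 11 and 28 UMIs.

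Because alveolar macrophage-like cells also held TdTomato UMIs, whose source was not tested, those with at least 3 TdTomato UMIs (1886 cells) were compared with those without any (140 cells). Cdkn2a was at 37.6 and 38.8 CPM, and no difference was detectable (log2 ratio -0.04, -0.66 to 0.65). Cdkn2a UMIs were thus also found in the cells without a TdTomato UMI, although a lack of UMIs does not show that the reporter was absent. Cdkn1a was at 562 and 499 CPM (0.17, 0.00 to 0.35). Ccng1 was higher with TdTomato, at 77.8 against 47.6 CPM (0.71, 0.16 to 1.32). No gene of the 9 was at least 2-fold higher or lower, where 8.86% of 10250 genes were higher and 3.43% lower. Immediate-early and heat-shock genes summed to 7514 CPM in cells with TdTomato and 6082 CPM in those without, and their part in the Ccng1 value was not tested.

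**Figure D4:**
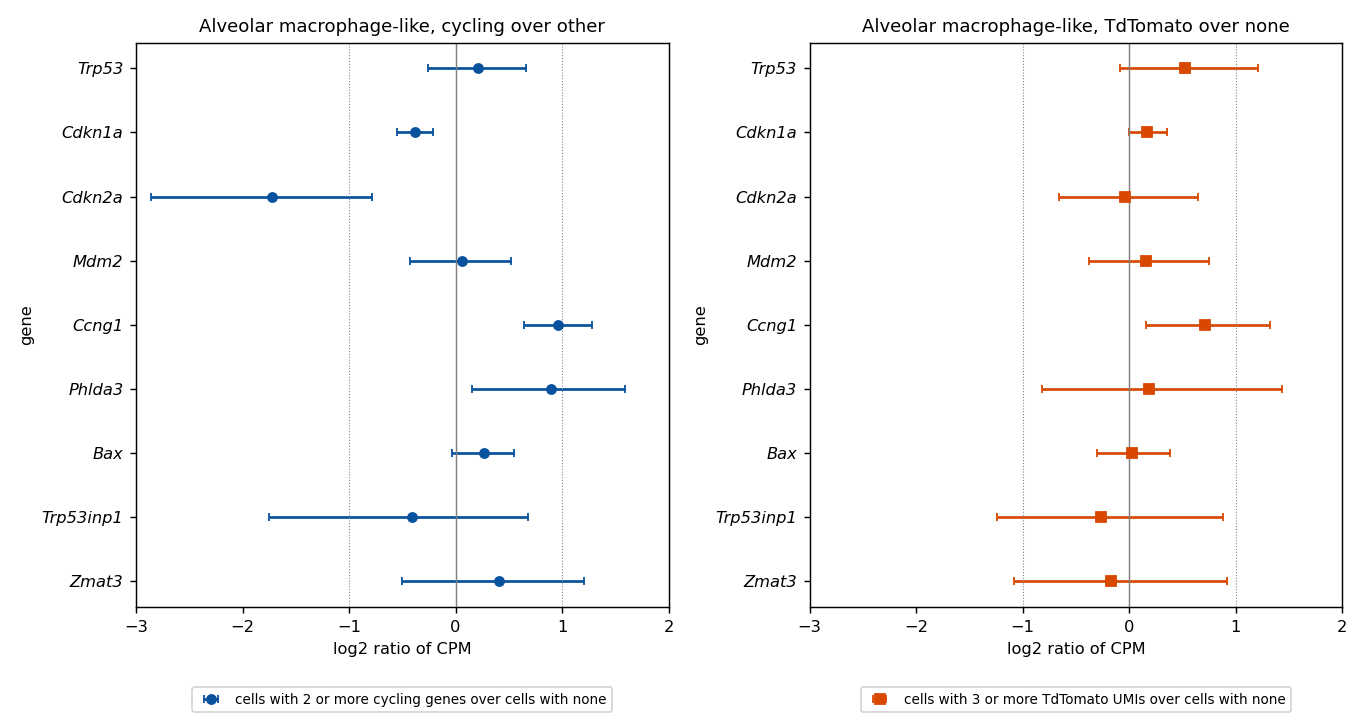
Log2 ratio of CPM with 95% counting intervals for each gene (rows) in alveolar macrophage-like cells, between 126 cycling and 1747 other cells (left) and between 1886 cells with and 140 without TdTomato UMIs (right); dotted lines mark 2-fold. On the left Cdkn2a is at -1.72 and Ccng1 at 0.96, and on the right the interval of Ccng1 alone lies above 0, with the lower bound of Cdkn1a at 0.00.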

How the data were processed

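Total viable cells of 4 tumor-bearing lungs were profiled. The deposited values were raw UMI counts for each gene in each cell. The authors produced them by running Cell Ranger (version 3.0.2 in the file header) against mm10, to which the GFP and TdTomato sequences had been appended. It held 58624795 UMIs in 20351 cells, each with at least 500 UMIs. Cells with at least 200 genes, and under the 98th percentile of genes (2713) and of mitochondrial share (13.4%), were kept. Clusters were made with Seurat 5.3.0 (R 4.3.3) on 2000 variable genes and 25 dimensions at a resolution of 0.1, with 83 genes held out, among them the 9 genes and the pathway lists. Doublets were kept, and Scrublet (scanpy 1.11.5) called 181 cells. The class names are not the study's own, and a value may differ from the study's for that reason.

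UMIs were summed per group. CPM have exact Poisson, ratios exact conditional and shares exact Clopper-Pearson 95% intervals (scipy 1.17.1), all for counting error only. A gene was tested for a 2-fold ratio with at least 20 UMIs in both groups together. Ratios were tested on simulated Poisson counts, which hold no extra spread between cells. The intervals were thus not checked against such spread. The genes, lists and comparisons were chosen with earlier results of these data known. Besides the 9 genes, the text names the 3 genes of each list with the largest ratios each way (pseudocount 10 CPM) in the epithelial and ATII-low comparisons, and the 5 genes most like Cdkn1a and Cdkn2a (at least 100 UMIs and 20 CPM in a group). Positions come from GENCODE vM21. A further allele that all mice shared is not reported here.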

Additional observations from a re-analysis of the deposited data

How the results depend on the processing

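No paired analysis was possible because no file used here ties a cell to a mouse, and for the same reason no replicate was left out. The epithelial comparison gave 3 genes at least 2-fold higher, and 3 or 4 under each of its 9 alternatives. The ATII-low comparison gave 5 genes, 4 to 6 under 9 alternatives, and 3 with sub-clusters in place of the gate and 3 with ATII marker UMIs left out of the totals. The Hopx comparison gave 1 gene and 0 with no upper cut-offs. In cycling T or NK-like cells the count went from 3 to 0 at a resolution of 0.3, to 0 with Scrublet doublets removed and to 1 in cells with T-cell receptor genes, and in cycling alveolar macrophage-like cells the count of genes at least 2-fold lower went from 1 to 2 with 95th percentile cut-offs. The reversed values were all in cycling T or NK-like cells: Cdkn1a at -0.70 (resolution 0.3) and -0.72 (doublets removed), and Bax, from 0.63, at -0.39, -0.38 and, with a minimum of 500 genes, -0.51. The number of cycling cells in the class fell from 255 to 41, 41 and 66 in these settings. Of the other log2 ratios 362 stayed within the interval of the main value and 34 left it in the same direction or from an interval that included 0. Cdkn2a in cycling macrophages ranged from -1.72 to -1.34. Thinning to 500 or 2000 UMIs moved the share of epithelial-like cells with a Cdkn1a UMI to 18.9% and 45.9%. Equal weights per class, the removal of cells with ciliated or club marker UMIs, the change of totals, the restriction to T-cell receptor genes and the alternatives of the Hopx, cycling and TdTomato comparisons were chosen after seeing the data. Depth limits Trp53 and Zmat3 in ATII-low cells, at 22 and 23 UMIs.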
